A study of Mus musculus with 4 samples.

Results

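A set of 39 immediate early and heat shock genes was followed across the 4 libraries of a study of osteoclast progenitors, the marrow cells from which bone-resorbing osteoclasts form. The members were listed by symbol, and all 39 were found among the 18276 genes of the table. They comprise 31 immediate early genes (AP-1, Egr, Nr4a and Klf transcription factors, Myc, feedback phosphatases and inhibitors, and other early response genes) and 8 heat shock proteins. Mouse bone marrow cells that lacked B220, CD3 and Mac-1 and carried CD115 (encoded by Csf1r) were sorted fresh, and their poly(A) RNA was sequenced. Both groups were on a B6;129 strain background and carried the Mx-1Cre transgene, whose interferon-inducible promoter is active in blood-forming cells and in other tissues as well. Ptip_KO mice also had Ptip flox/flox alleles (gene symbol Paxip1, a subunit of histone methyltransferase complexes), and WT mice had wild-type Ptip, with 2 libraries in each group. The labels give no ages, no times of sorting for single libraries and no statement that the libraries of a group came from separate animals. A p-value here thus sets a group difference against the spread of these libraries only, and that spread may be technical.

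Immediate early genes are transcribed within minutes of a stimulus from factors that are already in the cell, such as SRF with its ETS partners and CREB, which bind the CArG box and the CRE. Their products include the AP-1 dimers of Fos and Jun proteins, which act downstream of RANK and CSF1R in osteoclast formation, and the phosphatases and RNA-binding proteins that end the response. Heat shock genes are switched on by the factor HSF1, which binds repeats of the unit nGAAn. Some are also expressed in growing cells without stress (Hspa8, Hsp90aa1, Hspd1, Hspe1), which does not exclude induction by stress, and Hspa1a and Hspa1b are strongly stress-inducible. Immediate early and heat shock messages are both known to rise in cells that are dissociated, sorted or warmed.

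Levels are given as CPM, read counts scaled to the effective library size. The libraries held between 67592972 and 77773478 reads, so that 3 reads, the most that a count of 0 leaves possible, were worth 0.0380 to 0.0428 CPM, for counting error only. The deleted gene Paxip1 was at 5.10 and 3.73 CPM in Ptip_KO replicates 1 and 2 and at 106 and 103 CPM in WT replicates 1 and 2. WT replicate 2 differed from the other 3 libraries in Xist (298 CPM against 0.0428 to 0.0814 CPM), which is transcribed from an inactive X, and the part of that difference in the values of the WT libraries was not tested. Csf1r was at 825, 782, 677 and 606 CPM in Ptip_KO replicates 1 and 2 and WT replicates 1 and 2, and the CD3 gene Cd3e at 0 to 0.190 CPM.

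The sequences below belong to some of the members that the results describe. Hspa1a and Hspa1b are shown because their messages differed most between libraries among the members, and Dusp5 because it had the largest difference between the groups. The region between the RefSeq starts of Hspd1 and Hspe1 is shown because for both genes each Ptip_KO library lay below each WT library. The same held for Hsph1, which is not shown. The bases before each start site come from RefSeq (GRCm38.p6), on the strand of the gene. Capitals mark a heat shock element of 2 units (TTCNNGAA or GAANNTTC, either of which reads the same on both strands) or, in Dusp5, CArG boxes.
Hspa1a, chr17:34972157-34972276, minus strand: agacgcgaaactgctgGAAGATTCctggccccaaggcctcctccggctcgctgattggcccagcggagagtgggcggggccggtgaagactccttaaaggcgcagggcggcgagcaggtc
Hspa1b, chr17:34959239-34959358, minus strand: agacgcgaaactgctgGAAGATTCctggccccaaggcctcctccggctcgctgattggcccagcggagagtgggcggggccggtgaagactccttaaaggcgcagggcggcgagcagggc
Hspe1, chr1:55088053-55088082, plus strand: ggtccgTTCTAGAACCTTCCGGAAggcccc
Dusp5, chr19:53529045-53529104, plus strand: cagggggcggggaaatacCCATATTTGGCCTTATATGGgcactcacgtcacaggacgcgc

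The Hspa1a and Hspa1b stretches are the 120 bases before each start site and match at 119 of them. Of the 250 bases before the start sites, 247 were the same in both genes. Hspd1 and Hspe1, which encode the mitochondrial chaperonin and its co-chaperonin, lie head to head on chromosome 1. The 30 bases shown, 66 to 95 bases before the Hspe1 start, hold overlapping 2-unit elements, which also form the longer element TTCNNGAANNTTC or GAANNTTCNNGAA. Motifs were searched on both strands of RefSeq windows, and a longer element always holds a 2-unit one. Windows of 250 bases before to 50 after a start were found for 33 members, 27 immediate early and 6 heat shock genes. Egr1, Egr3, Myc, Ier2, Hspa8 and Hsp90aa1 had no window and were not searched. Sites outside a window were not searched either, so a gene not named below may still hold the motif. The 2-unit element was in 5 of the 6 heat shock members (Hspa1a, Hspa1b, Hspd1, Hspe1 and Hsph1) and in 3 of the 27 immediate early members, against 17% of 27025 genes. The longer element was in 3 of 6 heat shock members, 0 of 27 immediate early members and 0.662% of all genes. A CArG box was in 3 of 27 immediate early members (Dusp5, Egr2 and Zfp36) against 1.81% of all genes. A CRE (TGACGTCA) was in 4 of 27 (Btg2, Dusp1, Maff and Ppp1r15a) against 2.03%. The AP-1 site TGANTCA was in 1 of 27, Zfp36l1, against 8.97%.

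For most of the immediate early genes, the Ptip_KO libraries differed from each other by more than the group means did. This held for 18 of the 28 tested, against 38.8% of all genes tested. Single libraries vary more than means of 2, and the difference between the WT libraries was not compared in this way. Of the 39 members, 36 had at least 1 CPM in at least 2 libraries and were tested, and all 36 had at least 1 CPM in all 4 libraries. By limma with Benjamini-Hochberg adjustment over 12357 genes, 0 of the 36 rose in Ptip_KO (2.43% of all genes tested did) and 2 fell, Dusp5 and Hspa8 (3.86% of all genes did). At an unadjusted limma p under 0.05, 11 of the 36 passed, against 23.8% of all genes. The edgeR quasi-likelihood test called 0 higher and 3 lower, against 1.97% and 3.37% of all genes, and DESeq2 called 1 higher and 6 lower, against 6.31% and 9.11%. The median log2 fold change was −0.03 over the 36 members, 0.19 over the 28 immediate early and −0.43 over the 8 heat shock members, and 0.00 over all genes tested. With 2 samples against 2, an exact permutation test cannot give a two-sided p below 0.333, so each call rests on a spread estimated with the help of all genes. In bulk RNA, fewer cells of a type and less of a message in each cell cannot be told apart.

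Within Ptip_KO, 32 of the 36 tested members were higher in replicate 2 than in replicate 1, where 41.6% of all genes tested were. The median difference was 0.40 on the log2(CPM + 1) scale, against −0.03 over all genes. A difference of at least 1 in that direction was seen in 5 members, Hspa1a, Hspa1b, Atf3, Egr1 and Jun, and in 0.461% of all genes. In WT, 26 of 36 were higher in replicate 1 than in replicate 2, against 57.4% of all genes, with a median of 0.23 against 0.04. No member reached a difference of 1 between the WT libraries, in either direction, where 1.17% of all genes did. The Ptip_KO libraries differed by more than the group means in 22 of 36 members, against 38.8% of all genes. Ptip_KO replicate 2 was the highest of the 4 libraries for 19 members (20.7% of all genes), and Ptip_KO replicate 1 was the lowest for 19 (18.8%). Both orders at once, Ptip_KO replicate 2 above 1 and WT replicate 1 above 2, held for 22 members and for 15.1% of all genes. These are values of single libraries, with no test between the libraries of one group.

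**Figure D1:**
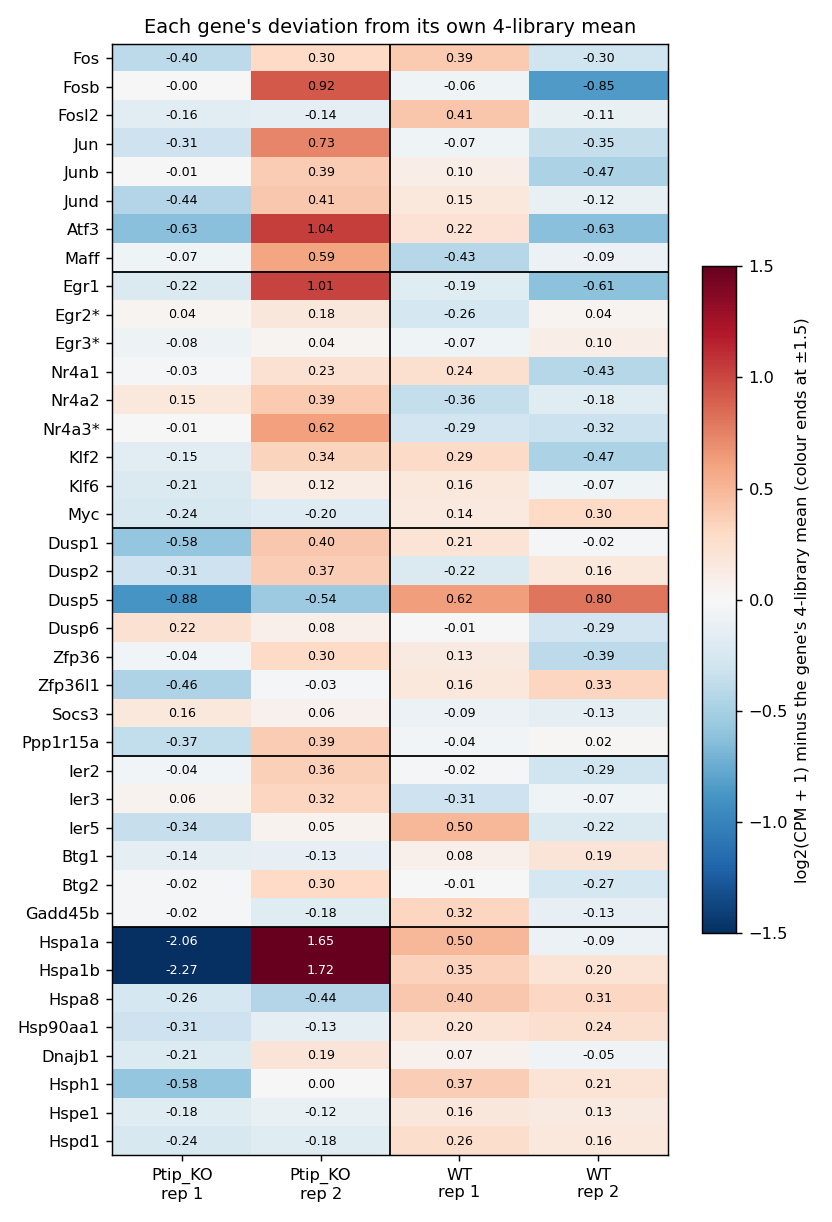
Each row is 1 of the 39 members in the order of the text (AP-1, other transcription factors, feedback genes, other early genes, heat shock proteins) and each column 1 library, and the colour and number give log2(CPM + 1) minus the mean of that gene over the 4 libraries. The Ptip_KO replicate 2 column is mostly red beside replicate 1, Hspa1a and Hspa1b run from −2.06 and −2.27 to 1.65 and 1.72 within Ptip_KO, and asterisks mark the 3 genes that were too low to test.

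AP-1 genes showed this order most uniformly. All 8 members, which encode leucine zipper factors that bind DNA as dimers, were higher in Ptip_KO replicate 2 than in replicate 1, and 7 of 8 were higher in WT replicate 1 than in replicate 2, with the same counts under both other scalings tried. Fos was at 614 CPM in Ptip_KO replicate 1, 997 in Ptip_KO replicate 2, 1061 in WT replicate 1 and 659 in WT replicate 2. Each group thus held 1 low and 1 high library of Fos, the groups overlapped, and the log2 fold change was −0.09 (standard error 0.306, limma adjusted p = 0.893). Jun was at 280.1 and 579.5 CPM in Ptip_KO, set against 332 and 272 CPM in WT, with only Ptip_KO replicate 2 set apart from the other 3 libraries.

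Atf3, a stress-induced repressor of the AP-1 and CREB class, had 24.3 and 79.4 CPM in Ptip_KO replicates 1 and 2 and 44.3 and 24.2 CPM in WT replicates 1 and 2. The lower Ptip_KO library and the lower WT library were thus level, and the difference inside Ptip_KO was 3.27-fold. Fosb was at 111 and 212 CPM in Ptip_KO, set against 107 and 61.2 CPM in WT. Its groups did not overlap by a small margin, and it had the largest log2 fold change among members above 0, 0.92 with a standard error of 0.369 (limma adjusted p = 0.210). Without Ptip_KO replicate 1 the adjusted p of Fosb was 0.0426, and without Ptip_KO replicate 2 it was 0.563 with a log2 fold change of 0.45. Without WT replicate 1 Fosb was at 1.31 (limma adjusted p = 0.0113), and without WT replicate 2 at 0.52 (0.252). Jun moved likewise, to 0.94 (limma adjusted p = 0.0368) without Ptip_KO replicate 1 and to −0.10 (0.902) without Ptip_KO replicate 2.

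Of the other AP-1 members, Jund had 91.6 and 166 CPM in Ptip_KO, set against 139 and 115 CPM in WT, and Junb had 275 and 362 CPM against 296 and 199 CPM. Junb passed without WT replicate 1 (log2 fold change 0.66, limma adjusted p = 0.0233) and did not with all libraries (0.374). Fosl2, a Fos relative, was at 174 and 176 CPM in Ptip_KO, set against 259.5 and 179.7 CPM in WT. The Ptip_KO libraries of Fosl2 were level, and WT replicate 1 was the one that stood above. Without WT replicate 2 the log2 fold change of Fosl2 was −0.57 (limma adjusted p = 0.0098), and with all libraries −0.30 (0.370). The small Maf protein gene Maff was at 2.81 and 5.01 CPM in Ptip_KO, set against 1.97 and 2.75 CPM in WT.

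The zinc finger gene Egr1, the textbook early response factor of growth signals, had 8.03 and 20.1 CPM in Ptip_KO, set against 8.22 and 5.87 CPM in WT. Again 1 library, Ptip_KO replicate 2, lay above the other 3, and the log2 fold change of 0.79 (limma adjusted p = 0.299) was 1.41 (0.0186) without Ptip_KO replicate 1 and 0.18 (0.851) without Ptip_KO replicate 2. Its relatives Egr2 (0.258 to 0.699 CPM) and Egr3 (0.184 to 0.342 CPM) were too low to test. The nuclear receptor genes of the Nr4a family, which act without a known ligand, were low to moderate. Nr4a1 was at 34.1 and 41.1 CPM in Ptip_KO, set against 41.4 and 25.7 CPM in WT, with overlapping groups. Nr4a2 was at 9.50 and 11.4 CPM in Ptip_KO, set against 6.36 and 7.30 CPM in WT, so that both Ptip_KO libraries lay above both WT libraries. Its log2 fold change of 0.54 did not pass by limma (adjusted p = 0.0902) and passed by DESeq2 (adjusted p = 0.0483). With a WT library left out, Nr4a1 passed without replicate 1 (0.53, limma adjusted p = 0.0409) and Nr4a2 without replicate 2 (0.63, 0.0343). Nr4a3 was at 0.775 and 1.74 CPM in Ptip_KO, set against 0.461 and 0.431 CPM in WT and was not tested.

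Klf2, a factor of quiescence in blood and vessel cells, had 86.9 and 122 CPM in Ptip_KO, set against 118 and 69.5 CPM in WT, again with 1 low and 1 high library in each group. Its relative Klf6 was at 231 to 299.7 CPM in all 4 libraries. Myc, the growth factor-induced regulator of cell growth, did not share that pattern. It had 83.6 and 86.5 CPM in Ptip_KO, set against 109.6 and 122 CPM in WT, and the groups did not overlap. The log2 fold change of Myc was −0.44 (standard error 0.0934), just short of the threshold by limma (adjusted p = 0.0546), while edgeR gave 0.0738 and DESeq2 0.00268. Without WT replicate 1 the limma adjusted p of Myc was 0.0149, and without any other single library it was 0.0672 to 0.255.

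**Figure D2:**
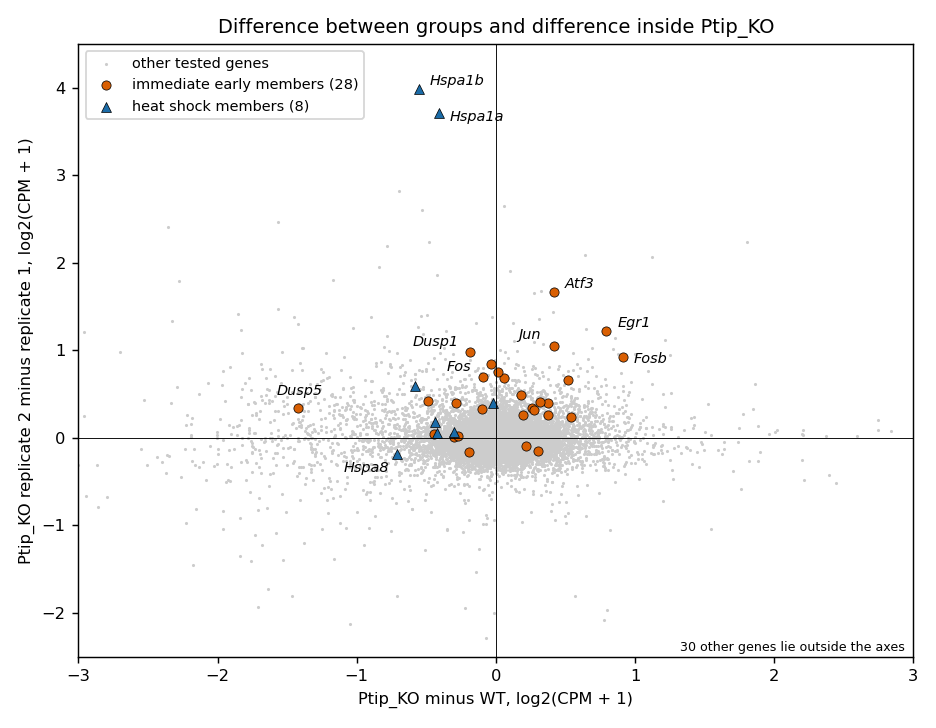
Each point is 1 tested gene, with the group difference (Ptip_KO minus WT) on the x axis and the difference between the Ptip_KO libraries (replicate 2 minus replicate 1) on the y axis, both on the log2(CPM + 1) scale, circles for 28 immediate early and triangles for 8 heat shock members, grey for other genes, of which 30 lie outside the axes. Hspa1a and Hspa1b sit at 3.71 and 3.99 on the y axis and near 0 on the x axis compared with that, while Dusp5 (−1.42) and Hspa8 (−0.71) lie to the left at small y values.

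Among the feedback genes, Dusp5 gave the clearest difference between the groups. It encodes a nuclear phosphatase that dephosphorylates ERK and is itself induced by ERK signalling. Dusp5 was at 2.73 and 3.73 CPM in Ptip_KO replicates 1 and 2 and at 9.56 and 10.9 CPM in WT replicates 1 and 2. Both Ptip_KO libraries were far below both WT libraries, and replicates lay close together. Dusp5 fell from 10.3 ± 0.975 to 3.23 ± 0.702 CPM (SD, n = 2 each), 3.18-fold, with a log2 fold change of −1.42 (standard error 0.168, limma adjusted p = 0.0138). Without WT replicate 2, the library that differed in Xist, it was −1.33 (limma adjusted p = 0.00165). The edgeR adjusted p was 0.0295, and the call held in every alternative run, with limma, edgeR and DESeq2 adjusted p between 5.0e-08 and 0.0357. Dusp5 (ENSMUSG00000034765.6) lies on chromosome 19 at 53529109 to 53542431 (GRCm38, plus strand), and an antisense gene, AC137853.2, overlaps it. The library kit keeps the strand, but whether counting used it is not given in the sources used here, so reads of the antisense gene cannot be told apart from those of Dusp5.

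The other dual-specificity phosphatases did not follow Dusp5. Dusp1, which inactivates p38 and JNK, was at 104 and 207 CPM in Ptip_KO, set against 182 and 154 CPM in WT, with the largest difference inside Ptip_KO of the 4 phosphatases. Dusp2 had 12.1 and 19.996 CPM in Ptip_KO, set against 13.0 and 17.1 CPM in WT. Dusp6, the cytoplasmic ERK phosphatase, had 60.7 and 54.8 CPM in Ptip_KO, set against 51.5 and 42.2 CPM in WT, and its log2 fold change was 0.30 (limma adjusted p = 0.222), or 0.44 (0.0470) without WT replicate 1. Dusp6 was thus one of 4 tested members that were lower in Ptip_KO replicate 2 than in replicate 1, with Socs3, Gadd45b and Hspa8.

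Zfp36 (tristetraprolin), which brings on the decay of cytokine messages, was at 297 and 377 CPM in Ptip_KO, set against 336 and 233 CPM in WT. Its relative Zfp36l1 was much lower, at 1.88 and 2.87 CPM in Ptip_KO, set against 3.42 and 3.96 CPM in WT (limma adjusted p = 0.210). Socs3, the inhibitor of cytokine receptor signalling, stayed between 7.51 and 9.37 CPM. Ppp1r15a (GADD34), which restarts translation after stress, had 67.2 and 114 CPM in Ptip_KO, set against 84.8 and 88.0 CPM in WT. The WT libraries of Ppp1r15a lay between the Ptip_KO libraries.

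The remaining early genes gave small group differences, with log2 fold changes from −0.29 to 0.38. Ier2 and Btg2, an antiproliferative gene, were highest in Ptip_KO replicate 2, at 184 and 199 CPM, and lowest in WT replicate 2, at 117 and 134 CPM. Ier5 was highest in WT replicate 1, at 83.6 CPM against 46.1 to 61.0 CPM elsewhere, and it passed without WT replicate 2 (log2 fold change −0.65, limma adjusted p = 0.0217). Ier3 had 9.69 and 11.9 CPM in Ptip_KO, set against 7.31 and 8.81 CPM in WT, and Gadd45b stayed between 9.79 and 14.2 CPM. Btg1, the other antiproliferative gene of this family, was at 180.1 and 182 CPM in Ptip_KO, set against 211 and 227 CPM in WT. Replicates of Btg1 lay close and the groups did not overlap, at a log2 fold change of −0.27 (limma adjusted p = 0.138). Over the 28 tested immediate early members the groups did not overlap in 6 that were higher and 5 that were lower in Ptip_KO, against 27.7% and 27.3% of all genes tested, so these shares were not above the background.

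Heat shock genes split into 2 patterns. The inducible Hsp70 genes Hspa1a and Hspa1b differed between the Ptip_KO libraries more than nearly any other gene. Hspa1a had 16.1 CPM in Ptip_KO replicate 1 and 222 CPM in Ptip_KO replicate 2, against 99.6 and 66.1 CPM in WT replicates 1 and 2. Hspa1b had 12.1, 207, 79.8 and 71.9 CPM in the same order. The lowest and the highest of the 4 libraries were thus both Ptip_KO, with WT between them.

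The difference inside Ptip_KO was 13.8-fold for Hspa1a (1226 and 15578 reads) and 17.1-fold for Hspa1b (922 and 14524 reads). By Ptip_KO replicate 2 minus replicate 1, Hspa1b ranked 2 and Hspa1a ranked 3 of 12357 tested genes, Atf3 ranked 20, Egr1 ranked 39 and Jun ranked 50. The transcripts of Hspa1a and Hspa1b match at 99.2% over 2201 aligned bases, so how reads were split between them is uncertain. Summed over both genes, the level was 28.2 and 429.6 CPM in Ptip_KO, set against 179 and 138 CPM in WT.

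For the groups, the log2 fold change of Hspa1a was −0.41 (standard error 1.11, limma adjusted p = 0.869), and by edgeR on the recovered reads it was 0.55 (0.796). For Hspa1b it was −0.55 (limma adjusted p = 0.825), and 0.56 (0.805) by edgeR. The sign was thus not shared between the 2 scales. Leaving out a single Ptip_KO library gave calls in opposite directions. Without Ptip_KO replicate 1, Hspa1a and Hspa1b were higher in Ptip_KO, each by 1.44 (limma adjusted p = 0.0164 and 0.00297). Without Ptip_KO replicate 2 they were lower, with log2 fold changes of −2.26 and −2.55 (limma adjusted p = 0.00256 and 0.00019). Such a fit assumes that the lone library would vary like the other group.

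**Figure D3:**
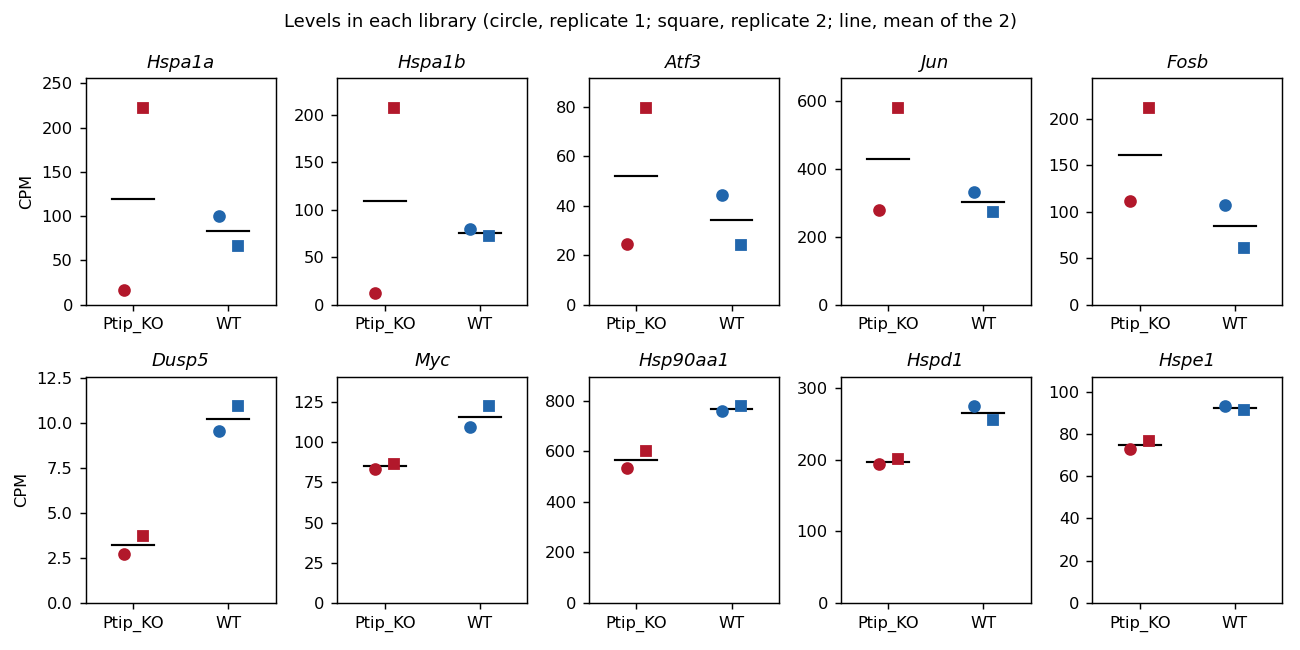
Levels in CPM of 10 members in each library, on axes that start at 0, with circles for replicate 1, squares for replicate 2 and a line at the mean of each group. Hspa1a, Hspa1b, Atf3 and Jun have their highest value in Ptip_KO replicate 2 and a wide gap inside Ptip_KO, while Dusp5, Myc, Hsp90aa1, Hspd1 and Hspe1 have close replicates and Ptip_KO below WT.

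Chaperone messages other than Hspa1a and Hspa1b were more alike within groups, and 5 of these 6 had both Ptip_KO libraries below both WT libraries, against 27.3% of all genes tested. All 6 had a negative log2 fold change, with a median of −0.43. After rescaling to a common sum, the sign was negative in 7 of the 8 heat shock members, Dnajb1 being the exception. The cytosolic chaperone gene Hsp90aa1 was at 532 and 602 CPM in Ptip_KO, set against 759.5 and 778 CPM in WT, a log2 fold change of −0.44 with a standard error of 0.109 (limma adjusted p = 0.0769, edgeR 0.0855, DESeq2 0.00137). Hspd1 had 194 and 202 CPM in Ptip_KO, set against 275 and 256 CPM in WT. Hspe1 had 72.9 and 76.4 CPM in Ptip_KO, set against 93.0 and 91.1 CPM in WT.

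The log2 fold changes of this mitochondrial pair were −0.42 (standard error 0.0894) for Hspd1 and −0.30 (standard error 0.0828) for Hspe1. Neither passed by limma, at adjusted p of 0.0547 and 0.0991. By edgeR, Hspd1 passed at an adjusted p of 0.0498 and Hspe1 did not at 0.0926, and by DESeq2 both passed, at 8.49e-05 and 0.0208. Hsph1, the Hsp110 nucleotide exchange factor, was at 23.1 and 35.3 CPM in Ptip_KO, set against 45.8 and 40.9 CPM in WT (limma adjusted p = 0.157). Without 1 library, Hspd1 passed by limma when WT replicate 2 was left out (adjusted p = 0.0245) and Hsph1 when Ptip_KO replicate 2 was (0.0281). Dnajb1, the HSF1-induced Hsp40 partner of Hsp70, had 89.1 and 118 CPM in Ptip_KO, set against 108 and 99.7 CPM in WT. Dnajb1 was the only one of the 6 whose groups overlapped, and its order of libraries was that of Hspa1a.

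Hspa8, the constitutive Hsp70, was the one heat shock gene past the threshold by limma. It had 1874 and 1653 CPM in Ptip_KO, set against 2973 and 2782 CPM in WT. The groups were well apart, and Hspa8 fell from 2877 ± 135 to 1764 ± 156 CPM (SD, n = 2 each), with a log2 fold change of −0.71 (standard error 0.140, limma adjusted p = 0.0462). Without WT replicate 2 it was −0.76 (limma adjusted p = 0.0177). Without Ptip_KO replicate 1 or 2 the call was lost (limma adjusted p = 0.175 and 0.328), and with no filter on low genes it was 0.118. Per kilobase of exon Hspa8 averaged 539.5 CPM over the 4 libraries, the highest of the members, with Fos next at 354.

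The call of Hspa8 (chromosome 9, 40800984 to 40810087, GRCm38) was lost when the reads of near-identical copies were added to it. Gm15459, a processed pseudogene on chromosome 5, has the length of the Hspa8 coding sequence and differs from it at 5 of 1941 positions (G114A, C414T, C549T, G1222A and C1440T, Hspa8 base first, counted from the first coding base). The longest stretch without a difference is 672 bases. Positions 84 to 143 are shown with the first of these differences in capitals, from GENCODE M21 transcripts.
Hspa8: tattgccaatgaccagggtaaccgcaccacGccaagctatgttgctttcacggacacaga
Gm15459: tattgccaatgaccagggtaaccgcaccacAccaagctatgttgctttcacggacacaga

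Gm15459 differed in the opposite direction, with 391 and 835 CPM in Ptip_KO, set against 46.4 and 36.1 CPM in WT. Hspa8 summed with its 5 near-identical copies in the table had 2268 and 2491 CPM in Ptip_KO, set against 3022 and 2820 CPM in WT. The groups still did not overlap, but the sum differed by a log2 fold change of −0.30 (standard error 0.141, limma adjusted p = 0.273), so that the summed level did not pass. This sum was added after the data were seen. Summed with their copies, Hsp90aa1 (−0.44, limma adjusted p = 0.0767) and Hspd1 (−0.42, 0.0545) stayed as they were, and none of their copies was above 10.5 CPM. In all, 7 of the 39 members have a near-identical copy. A gene on the opposite strand overlaps 12 members, among them Jun, Junb, Dusp1, Hspd1 and Hspe1. Hspd1 and Hspe1 overlap each other at their GENCODE starts, so that the bases shown before Hspe1 lie within the GENCODE span of Hspd1.

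**Figure D4:**
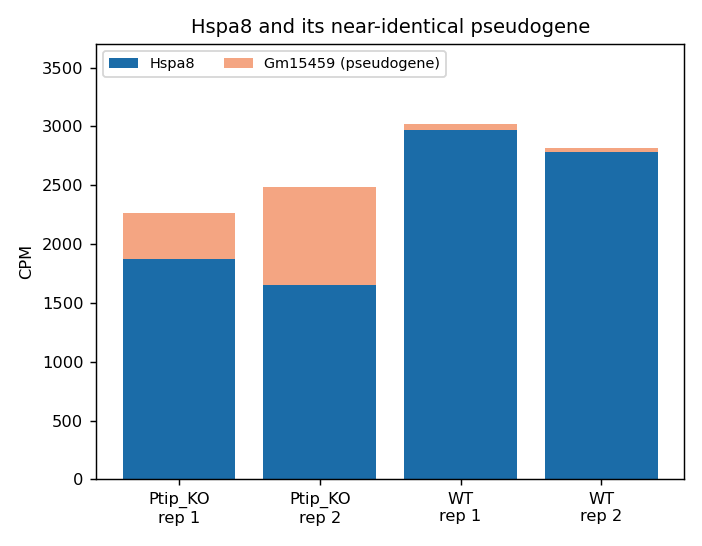
Bars give CPM in each library for Hspa8 (blue) with its processed pseudogene Gm15459 stacked on top (orange), on an axis that starts at 0. The blue part is 1653 to 1874 CPM in Ptip_KO and 2782 to 2973 CPM in WT, and the pseudogene adds 391 and 835 CPM in Ptip_KO but 36.1 to 46.4 CPM in WT.

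Other genes of the same pathways were counted from lists that hold no member. Of 34 tested further immediate early genes, 2 rose and 1 fell by limma, against 2.43% and 3.86% of all genes tested. Their median log2 fold change was 0.05. Sgk1, a kinase induced by serum and glucocorticoids, had 12.0 and 14.6 CPM in Ptip_KO, set against 23.9 and 23.3 CPM in WT (log2 fold change −0.79, limma adjusted p = 0.0270). The stress sensor Gadd45g rose, with 6.92 and 7.74 CPM in Ptip_KO, set against 4.25 and 3.99 CPM in WT (0.70, 0.0432), and so did Id1, an inhibitor of helix-loop-helix factors, with 34.0 and 28.6 CPM against 20.01 and 15.8 CPM (0.78, 0.0452). By edgeR, Gadd45g missed the threshold (adjusted p = 0.0649), and without Ptip_KO replicate 1 all 3 missed it, with limma adjusted p of 0.0963 for Sgk1, 0.139 for Gadd45g and 0.148 for Id1. Gadd45g also missed it without Ptip_KO replicate 2 (limma adjusted p = 0.237). Ccl3, a chemokine, had 61.8 and 75.8 CPM in Ptip_KO, set against 51.3 and 42.3 CPM in WT (limma adjusted p = 0.0892). In this list 29 of 34 were higher in Ptip_KO replicate 2 than in replicate 1 (41.6% of all genes), and 18 of 34 were higher in WT replicate 1 than in replicate 2 (57.4% of all genes).

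Among the kinases and factors upstream, 4 of 30 were higher in Ptip_KO replicate 2 than in replicate 1 (41.6% of all genes), while 27 of 30 were higher in WT replicate 1 than in replicate 2 (57.4% of all genes). Of these 30, 0 rose and 0 fell between the groups by limma, with 4 at an unadjusted limma p under 0.05 (23.8% of all genes), 0 by edgeR and 2 lower by DESeq2. The smallest p was that of the kinase gene Braf, at 41.9 and 37.1 CPM in Ptip_KO, set against 54.4 and 50.8 CPM in WT (limma adjusted p = 0.0801). Srf itself was at 124 to 146 CPM. Of 33 further heat shock proteins and co-chaperones, 0 passed in either direction by limma (8 at an unadjusted limma p under 0.05, against 23.8% of all genes, 0 by edgeR, 5 lower by DESeq2). A negative log2 fold change was found in 28 of the 33, against 49.5% of all genes, with a median of −0.14. Both Ptip_KO libraries lay below both WT libraries in 21 of them, against 27.3% of all genes. Fkbp4, a co-chaperone of Hsp90, had 226 and 224 CPM in Ptip_KO, set against 294 and 275 CPM in WT (limma adjusted p = 0.0837), and Hsf1 had 47.8 and 49.9 CPM in Ptip_KO, set against 54.6 and 53.4 CPM in WT (0.381).

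Markers of other cells that a marrow sort can hold moved between libraries too. The summed level of 10 red cell markers was 797 and 1089 CPM in Ptip_KO, set against 2040 and 4750 CPM in WT. All 10 were higher in Ptip_KO replicate 2 than in replicate 1, as were 25 of the 28 tested immediate early members (41.6% of all genes). In WT all 10 were lower in replicate 1 than in replicate 2. Of the same 28 members, 19 were higher in WT replicate 1 (57.4% of all genes). Among these markers, Hba-a1, Hba-a2, Alas2, Klf1 and Slc4a1 fell in Ptip_KO by limma. For 12 neutrophil markers the sums were 9855 and 10473 CPM in Ptip_KO, set against 9038 and 13521 CPM in WT. A sum mostly follows its highest genes. By limma 1 of 12, Padi4, fell, but 11 of 12 had a negative log2 fold change (49.5% of all genes), with a median of −1.46. Both Ptip_KO libraries lay below both WT libraries in 8 of 12, against 27.3% of all genes. In WT all 12 neutrophil markers were lower in replicate 1 than in replicate 2. The 9 macrophage markers in the table summed to 218, 187, 353 and 220.5 CPM and the 10 dendritic cell markers to 1022, 833, 1215 and 1081 CPM in Ptip_KO replicates 1 and 2 and WT replicates 1 and 2. By limma, 6 of 8 tested macrophage markers fell (Adgre1, Mrc1, Cd163, C1qa, C1qb and C1qc), and 5 of 9 tested dendritic cell markers did (Itgax, Flt3, Zbtb46, H2-Aa and H2-Ab1). The 10 T and NK cell markers summed to 35.9, 50.7, 51.4 and 72.8 CPM, the 10 B cell markers (with Ptprc, which other white cells share) to 1308, 1213, 1637 and 1430.4 CPM, and 8 stromal and endothelial markers to 91.2 to 101 CPM. Markers of the sorted cells themselves, 10 with Csf1r, summed to 10559 to 12436 CPM, with Kit and Flt3 lower in Ptip_KO by limma. These lists share genes, Mpo with the neutrophil list and Flt3 and Irf8 with the dendritic cell list. The sums are thus not separate, and those of neutrophil and dendritic cell markers include messages of the sorted cells. Cd3e and Cd8a were at 0 in at least 1 library. Of 4 tested B cell markers, 1, the receptor gene Cd79b, rose by limma and 3 had negative log2 fold changes, and edgeR called 0 of the 4. The part of these cells in the differences between libraries was not tested.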

How the data were processed

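The authors deposited 1 table of a normalized signal per gene, CPM on the effective library size by its name. The submitters' processing notes list TopHat2 2.0.10, HTSeq 0.6.0, edgeR 3.8.6 and mm10, without their roles. Each value was a whole multiple of 1 read (100% within 0.01 read), so whole reads were recovered. Identifiers were matched to GENCODE M21 symbols (18249 of 18276). Members and lists were chosen with earlier results of these data known.

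Genes with at least 1 CPM in 2 libraries (12357) were tested with limma 3.58.1 (R 4.3.3) after adding 1 CPM and taking log2, the prior following the mean level, genotype as the only term, two-sided, Benjamini-Hochberg at 0.05; this scale understates changes of low genes. As alternatives, edgeR 4.0.16 (quasi-likelihood) and DESeq2 1.42.0 were run on the reads. Other pseudocounts, filters, scalings and priors, a replicate block and each library left out were tried. The fit was tested on simulated data. Near-identical copies were found with BLAST 2.17.0 (95% identity, 50% of the shorter transcript, 200 bases). Named genes were all members, the 4 smallest p of each pathway list, and markers; Srf and Hsf1 were added after their values were seen. Mitochondrial messages were not analysed here.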

Additional observations from a re-analysis of the deposited data

How the results depend on the processing

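Of 537 refits of the 36 tested members, 504 gave the call of the limma fit, 29 passed the threshold newly and 4, all of Hspa8, lost it. The count of members that rose, 0 by limma, was 1 with the replicate block and 1 by DESeq2, and 0 to 5 with a library left out (most without Ptip_KO replicate 1). The count that fell, 2, was 1 with no filter, 6 with the replicate block, 6 by DESeq2, 1 with copies summed, and 1 to 5 with a library left out (fewest without Ptip_KO replicate 1, most without WT replicate 2). With copies summed, the lost call was Hspa8, whose reads were joined to those of its copies; elsewhere the cause was not tested. The median log2 fold change of the members, −0.03, lay between −0.28 (Ptip_KO replicate 2 left out) and 0.31 (Ptip_KO replicate 1 left out), and was 0.02 on a common sum, 0.09 by edgeR and 0.08 by DESeq2. That of the immediate early members, 0.19, was −0.11 and −0.01 with the second library of Ptip_KO or of WT left out. The counts by which Ptip_KO replicate 2 lay above replicate 1 (32) and WT replicate 1 above replicate 2 (26) ranged from 30 to 35 and from 23 to 27 over pseudocounts, filters and scalings. Rescaling to a common sum turned the median of all genes within WT from 0.04 to −0.06. The replicate numbers share no stated source, and the differences of replicate 1 from 2 correlated with r = 0.332 across 12357 genes between the groups. With the block, limma called 691 genes higher and 1030 lower, in place of 300 and 477. On the recovered reads edgeR called 243 higher and 417 lower and DESeq2 780 and 1126, and with a library left out limma called 113 to 700 higher and 339 to 920 lower. Depth does not limit the comparisons of tested members, the least of which had 143 reads in Ptip_KO replicate 1.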

Other observations

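Genes outside the set that led the difference between the Ptip_KO libraries were looked at after their values were seen. Hist1h4m, a histone H4 gene, was the one tested gene ahead of Hspa1b and Hspa1a, with 0.381 and 92.1 CPM in Ptip_KO replicates 1 and 2 and 159 and 163 CPM in WT. Prg2, the major basic protein of eosinophil granules, had 6.003 and 37.6 CPM in Ptip_KO, set against 21.2 and 106 CPM in WT, and Epx, the eosinophil peroxidase, had 4.12 and 22.5 CPM in Ptip_KO, set against 7.96 and 38.7 CPM in WT. Unlike Atf3 and Fos, Prg2 and Epx were higher in WT replicate 2 than in WT replicate 1. Across the 36 tested members, the difference of Ptip_KO replicate 2 from 1 and that of WT replicate 1 from 2 correlated with r = 0.22, and across all 12357 tested genes with r = −0.33, given as a description, since genes of one library are not independent.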
